A study of Mus musculus with 4 samples.

Results

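The genes described here encode subunits of the mitochondrial respiratory chain, and cytochrome c, that are made from nuclear DNA. A list of 58 such genes was matched by symbol, older names included, to the array's probes. Of these, 57 had a probe and were tested, among 21464 genes in all, and no probe was matched to Ndufa11. The tested members comprised 29 of complex I, 4 of complex II, 6 of complex III, 9 of complex IV, 8 of complex V and cytochrome c (Cycs). Ndufa4 was counted with complex IV, where its protein is now placed.

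Basal cells were sorted by flow cytometry from the prostates of adult FVB mice and grown as prostate spheres, a culture in which single progenitors form epithelial balls. One group received vehicle (DMSO) and the other received DAPT at 5 µM, and medium was renewed every 24 h in both. The compound blocks γ-secretase, a membrane protease that frees the signalling fragment of Notch receptors and also cuts other membrane proteins. Each group had 2 samples, and each sample was hybridised to a 2-colour array with sphere RNA in red and a universal mouse reference RNA in green. The comparison asks how blocking Notch signalling alters basal cells in culture. No label says that the samples of a group came from separate animals or cultures, so the p-values cover no more than the sample-to-sample spread seen here, which could be purely technical.

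The respiratory chain passes electrons from NADH and succinate to oxygen and pumps protons across the inner mitochondrial membrane. Complex I (NADH dehydrogenase) and complex II (succinate dehydrogenase) feed electrons to ubiquinone, complex III passes them to cytochrome c, complex IV (cytochrome c oxidase) reduces oxygen, and complex V (ATP synthase) uses the proton gradient to make ATP. Complexes I, III, IV and V also hold subunits made inside mitochondria from mitochondrial DNA. No matched probe was found for the 13 protein genes of mitochondrial DNA, so the values below cover nuclear genes of the chain only. Nuclear members share promoter elements for factors such as nuclear respiratory factor 1 (NRF1), ETS-family factors and YY1.

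Promoters are shown for 3 members that the results turn on. Ndufa3 and Uqcrh were lower with DAPT, and Sdha had the highest change of all members. Each sequence is the 250 bases before the annotated start, from RefSeq on GRCm38.p6, written 5′ to 3′ on the gene's strand. Capitals mark matches to NRF1 (GCGCA and GCGC parted by any 1 base) or ETS (CCGGAAGTG), searched on both strands.
Ndufa3, chr7:3617123-3617372, + strand: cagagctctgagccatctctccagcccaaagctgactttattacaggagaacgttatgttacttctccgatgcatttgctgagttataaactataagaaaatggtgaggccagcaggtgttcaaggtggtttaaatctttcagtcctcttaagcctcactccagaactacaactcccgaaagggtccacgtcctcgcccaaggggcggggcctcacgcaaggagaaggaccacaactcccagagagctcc
Uqcrh, chr4:116075071-116075320, - strand: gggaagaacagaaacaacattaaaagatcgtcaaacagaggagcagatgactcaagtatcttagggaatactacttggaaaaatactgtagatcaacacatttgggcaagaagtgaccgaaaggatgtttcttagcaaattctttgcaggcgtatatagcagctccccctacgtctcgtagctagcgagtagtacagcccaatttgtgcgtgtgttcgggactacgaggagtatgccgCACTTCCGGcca
Sdha, chr13:74350241-74350490, - strand: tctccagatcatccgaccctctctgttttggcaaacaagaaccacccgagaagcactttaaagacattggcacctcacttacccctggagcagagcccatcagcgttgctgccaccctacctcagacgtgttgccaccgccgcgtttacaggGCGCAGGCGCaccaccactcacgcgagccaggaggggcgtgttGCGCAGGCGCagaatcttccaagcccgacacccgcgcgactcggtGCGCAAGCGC

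The Sdha promoter held 3 NRF1 matches, whose first bases lay at -98, -55 and -10 from the start. That of Uqcrh held 1 ETS match on the opposite strand at -12, and that of Ndufa3 held neither motif. Promoter windows of 300 bases, which add 50 bases after the start, were matched for 48 of the 58 members (53 windows). NRF1 letters occurred in 24.5% of the members' windows and in 4.6% of all 32851 windows of that length. YY1 letters (AANATGGCG, both strands) occurred in 17% and 2.38%, and ETS letters in 3.77% and 2.03%. Matches of different motifs were counted separately whether or not they overlapped. The median log2 change with DAPT was -0.09 over the 11 tested members with an NRF1 match and -0.29 over the 36 without one. For YY1 the medians were -0.14 over 9 with a match and -0.27 over 38 without. For ETS they were -0.38 over 2 and -0.23 over 45. None of these splits was tested. Motifs were matched by letters alone, which is no test of binding.

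Values are log2 ratios of sphere over reference RNA, so 0 means equal signal in both. Changes are DAPT minus vehicle ± SE from limma, and p-values are adjusted over all 21464 genes by the Benjamini-Hochberg method, with a threshold of 0.05. All 57 members were well above background in the sphere channel on all 4 arrays, and 50 of them were in the brightest of 5 equal groups of genes by sphere signal. On all 4 arrays 44 members were above the reference, and 1 was below it, Ndufb5 of complex I. In the sorted basal cells the basal keratins Krt5 and Krt14 had mean log2 ratios of 4.65 and 4.20 with vehicle and 4.92 and 4.24 with DAPT. Of 10 basal markers, 8 were above the reference on all 4 arrays and 2, Ngfr and Dst, were below it. The basal markers' median log2 ratio was 3.19 with vehicle and 2.86 with DAPT. That of 9 luminal markers was nearly as high, at 2.91 and 2.81. The median of the changes was -0.11 for the basal and -0.36 for the luminal markers. Below 0 were 5 of 10 basal and 8 of 9 luminal markers, beside 56.4% of all genes.

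Ndufa3, Ndufa1 and Uqcrh were lower with DAPT, 3 of 57 members, and none was higher, by limma. At an unadjusted p under 0.05 the counts were 16 lower and 1 higher, beside 13% lower and 10.2% higher of all genes. Of all genes tested, 3.92% were called lower and 2.88% higher, and of the brightest group 6.06% and 2.14%. The members' share called lower, 3 of 57, is thus close to the background of genes as bright. The change was below 0 in 47 of 57 members, against 56.4% of all genes and 2805 of the 4293 in the brightest group. The members' median change was -0.26, beside -0.06 for all genes and -0.13 for the brightest group, but with median centring of each array in place of loess it was 0.18 beside 0.11 for all genes. Both DAPT arrays were below both vehicle arrays in 33 members and above in 3 (Sdha, Cyc1 and Cycs), while 21 overlapped. Among all genes 31.8% lay wholly below and 22.1% wholly above, and in the brightest group 1602 and 641 of 4293 did.

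**Figure D1:**
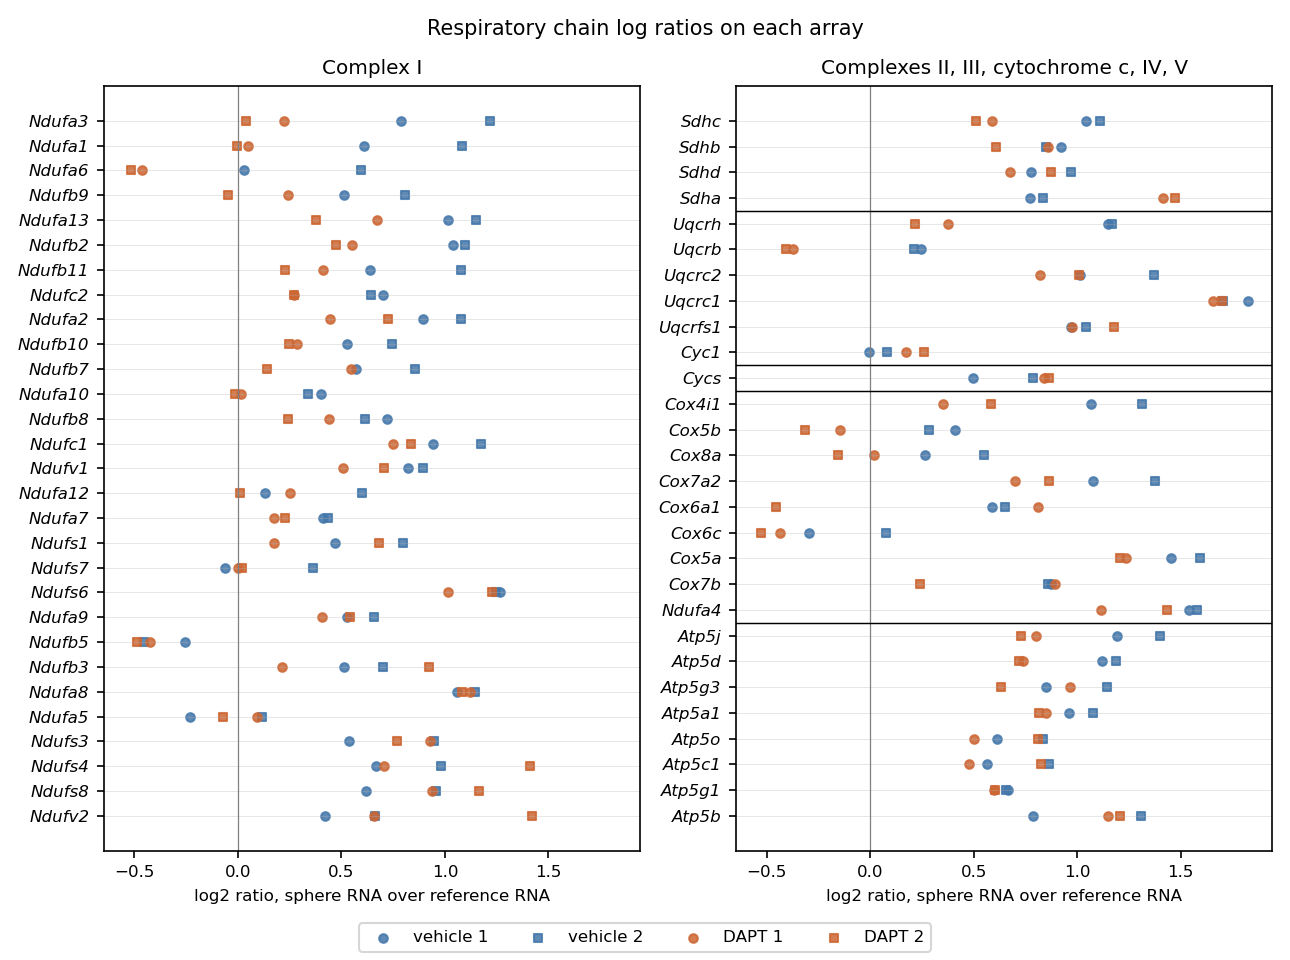
Log2 ratio of sphere RNA over reference RNA (horizontal axis) of the 57 tested members on each of the 4 arrays. Genes are ordered within each complex from the lowest to the highest change, horizontal lines part the complexes, circles and squares are samples 1 and 2, blue is vehicle and orange is DAPT. Orange lies wholly left of blue in 33 members and wholly right in 3, beside 31.8% and 22.1% of all genes.

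The scanner software marked spots as non-uniform or as outliers unevenly between the groups. Of the members' spots, 14.0% and 43.9% were marked on the vehicle arrays and 94.7% on each DAPT array. Over all probe spots the shares were 11.6%, 29.2%, 49.6% and 50.9%. These spots stayed in the fit, and dropping genes with a mark on any array removed all members but Ndufs8. The part these marks play in the members' values was not tested. All arrays lay on 1 slide with vehicle and DAPT at neighbouring positions of their own, so position and treatment cannot be told apart.

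Complex I, the largest group with 29 of the 57 tested members, held 2 of the 3 called members and the widest range of changes. Of all genes 3.92% were called lower, and of the brightest group 6.06%. The complex I members had a median of -0.25 and ranged from -0.87 to 0.50. Of these 29, 24 were below 0, beside 56.4% of all genes and 2805 of the 4293 in the brightest group. Ndufa3, an accessory subunit of the membrane arm, had log2 ratios of 0.79 and 1.22 with vehicle and 0.22 and 0.04 with DAPT. The groups did not overlap, and both DAPT arrays were near the reference. Ndufa3 fell by 0.87 ± 0.21 (adjusted p = 0.030, limma), a 1.83-fold lower ratio.

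Ndufa1, a small membrane-anchored subunit needed to assemble the complex, had log2 ratios of 0.61 and 1.08 with vehicle and 0.05 and -0.0018 with DAPT. Its change was -0.82 ± 0.21 (adjusted p = 0.0397, limma). A second Ndufa1 probe read 1.05 and 1.35 with vehicle and 0.20 and 0.21 with DAPT, a change of -0.99 (adjusted p = 0.013 over all probes, limma). Both probes thus passed the threshold. Ndufa6, an accessory subunit of the peripheral arm's junction, had a change of -0.80 but did not pass (adjusted p = 0.0511, limma). It was chosen for mention after its values were seen.

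The highest change in complex I was that of Ndufv2, an iron-sulfur subunit of the NADH-binding module. Its log2 ratios were 0.42 and 0.66 with vehicle and 0.66 and 1.42 with DAPT. Only the DAPT 2 array stood above the others, and the change of 0.50 ± 0.25 did not pass (adjusted p = 0.258, limma). The 6 tested members that belong to the conserved catalytic core (Ndufs1, Ndufs3, Ndufs7, Ndufs8, Ndufv1 and Ndufv2) had a median change of -0.02. The 23 accessory members, which surround that core, had -0.37. Of them 21 were below 0, beside 3 of 6 core members, 56.4% of all genes and 2805 of the 4293 in the brightest group. This grouping was chosen after the values were seen and was given no test.

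Probes of a single gene did not always point one way. Of the 13 members with several probes, 9 had all probes of 1 sign. In complex I the others were Ndufa8 with changes of -0.0003 and 0.23, Ndufa12 with -0.23, -0.20 and 0.49, and Ndufc1 with -0.26 and 0.01. None of these passed the threshold.

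**Figure D2:**
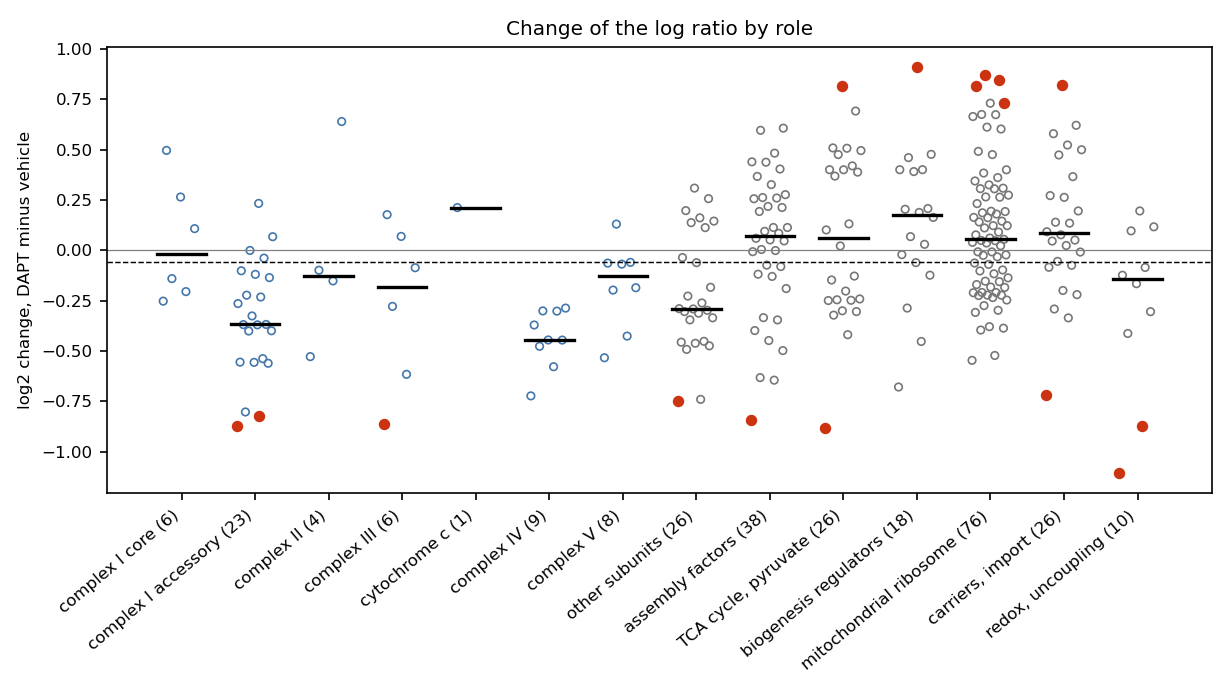
Log2 change, DAPT minus vehicle (vertical axis), of each tested gene by role, with the number of genes in brackets. Blue circles are members, grey circles are genes of other mitochondrial lists, filled red circles passed the threshold, black bars are medians and the dashed line is the median of all genes. The bars of complex IV (-0.44) and of accessory complex I subunits (-0.37) lie lowest. With median centring these medians were 0.04 and 0.08, both below the 0.11 of all genes.

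Complex II links the chain to the citric acid cycle, and its members spread to both sides. Sdha, the flavoprotein that oxidises succinate, had log2 ratios of 0.77 and 0.83 with vehicle and 1.41 and 1.47 with DAPT. The arrays of each group lay close together and the groups did not overlap. The change of 0.64 ± 0.19 missed the threshold (adjusted p = 0.0668, limma). A dimmer Sdha probe read -0.17 and 0.14 with vehicle and -0.15 and -0.26 with DAPT, a change of -0.19, so the probes disagree in sign.

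Sdhc, a membrane anchor that binds heme, lay at the other end. Its log2 ratios were 1.04 and 1.11 with vehicle and 0.59 and 0.51 with DAPT. The groups did not overlap, and the change was -0.53 ± 0.19 (adjusted p = 0.122, limma). Sdhb, the iron-sulfur subunit, and Sdhd, the other anchor, had overlapping groups, with changes of -0.15 and -0.10.

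Complex III held the third called member. Uqcrh, the hinge protein at which cytochrome c docks, had log2 ratios of 1.15 and 1.17 with vehicle and 0.37 and 0.22 with DAPT. Its vehicle arrays were almost equal and both DAPT arrays far below them. Uqcrh fell by 0.86 ± 0.19 (adjusted p = 0.0206, limma), a 1.82-fold lower ratio. A second Uqcrh probe had 0.60, 1.03, -0.25 and 0.47 on vehicle 1, vehicle 2, DAPT 1 and DAPT 2, and its change of -0.70 did not pass (adjusted p = 0.122 over all probes, limma).

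Uqcrb, a ubiquinone-binding subunit chosen for mention after its values were seen, had log2 ratios of 0.25 and 0.21 with vehicle and -0.37 and -0.40 with DAPT (change -0.62, adjusted p = 0.0745, limma). Its groups lay on either side of the reference. Cyc1, the cytochrome that hands electrons to cytochrome c, had the highest change in the complex, with log2 ratios of -0.0045 and 0.08 with vehicle and 0.17 and 0.26 with DAPT. The groups did not overlap, but the change of 0.18 ± 0.19 was smaller than its error (adjusted p = 0.628, limma). Of the 6 members, 4 had wholly lower DAPT arrays, beside 31.8% of all genes and 1602 of the 4293 in the brightest group. The median change of complex III was -0.18.

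Cycs, the soluble electron carrier that also takes part in apoptosis, had log2 ratios of 0.50 and 0.78 with vehicle and 0.84 and 0.87 with DAPT. Its change was 0.21 ± 0.20 (adjusted p = 0.567, limma), and its other probes gave 0.03 and 0.30.

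Complex IV had the lowest median, -0.44. All 9 members were below 0, beside 56.4% of all genes and 2805 of the 4293 in the brightest group. None passed the threshold by limma, and 4 did at an unadjusted p under 0.05, where 13% of all genes were lower. In 7 of the 9 both DAPT arrays were below both vehicle arrays, beside 31.8% of all genes. In the brightest group 1602 of 4293 were. In the sphere channel alone 2 lay wholly lower and 1 wholly higher, beside 25.2% and 21.5% of all genes. With median centring 3 of the 9 were below 0, and the median of the 9 was 0.04, beside 0.11 for all genes.

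Cox4i1, the broadly expressed form of a regulatory subunit, had log2 ratios of 1.07 and 1.31 with vehicle and 0.35 and 0.58 with DAPT. The groups did not overlap, and the change of -0.72 ± 0.20 narrowly missed the threshold (adjusted p = 0.0529, limma). Ndufa4 had the change nearest to 0, with 1.54 and 1.58 with vehicle and 1.11 and 1.43 with DAPT (-0.29 ± 0.20, adjusted p = 0.429, limma). Its DAPT arrays were also below its vehicle arrays. Cox6a1 carried the largest gap within a group, with 0.59 and 0.65 with vehicle but 0.81 and -0.46 with DAPT. It too was chosen for mention after its values were seen.

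Complex V had a median of -0.13, close to that of the brightest group of genes. Atp5j, the coupling factor of the peripheral stalk, had log2 ratios of 1.19 and 1.40 with vehicle and 0.80 and 0.73 with DAPT. Its groups did not overlap, and the change was -0.53 ± 0.20 (adjusted p = 0.126, limma). Atp5b, the catalytic beta subunit, had 0.78 and 1.31 with vehicle and 1.15 and 1.20 with DAPT (0.13 ± 0.22, adjusted p = 0.767, limma). Its DAPT values lay between its vehicle values, and its other probes gave 0.09 and 0.20.

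Each channel was also fitted on its own, after quantile normalization of brightness between arrays. The reference channel holds the same RNA on every array, so a difference there is none between sphere samples. The members' median change was -0.18 in the sphere channel and 0.10 in the reference channel. None of the 57 was called in either channel by limma, where 0.00466% and 0% of all genes were called. At an unadjusted p under 0.05 the sphere channel had 4 members lower and 0 higher, beside 5.95% and 6.36% of all genes. The reference channel had 0 lower and 2 higher, beside 3.56% and 4.35%. In the sphere channel 15 members lay wholly lower with DAPT and 7 wholly higher, that is 15 and 7 of 57 beside 25.2% and 21.5% of all genes. In the reference channel 6 lay wholly lower and 11 wholly higher, beside 18.5% and 21.9%.

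The called members, and Cox4i1, which was not called, differed in the channel that held the larger difference. In the sphere channel Ndufa3 read 11.83 and 11.78 with vehicle and 11.21 and 10.60 with DAPT on the log2 signal scale. Its difference was -0.90 ± 0.31 there and -0.03 in the reference channel. Cox4i1 was alike, at -0.82 and -0.10, with sphere signals of 12.49 and 12.49 against 11.67 and 11.66. In both the larger difference thus lay in the sphere channel, but neither passed there (adjusted p = 0.363 for Ndufa3 and 0.344 for Cox4i1, limma).

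Ndufa1 showed the reverse, with -0.14 in the sphere channel and 0.68 in the reference channel (adjusted p = 0.664, limma). Its reference signals were 10.89 and 9.93 on the vehicle arrays and 11.09 and 11.09 on the DAPT arrays, so vehicle 2 was low. Uqcrh was divided, with -0.35 in the sphere channel, where the groups overlapped, and 0.51 in the reference channel (adjusted p = 0.68, limma). Its sphere signals were 13.93 and 13.42 with vehicle and 13.53 and 13.11 with DAPT. Sdha was at 0.39 and -0.25, with sphere signals that differed more between the arrays of a group (10.75 and 9.12, 11.60 and 9.05) than between groups.

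**Figure D3:**
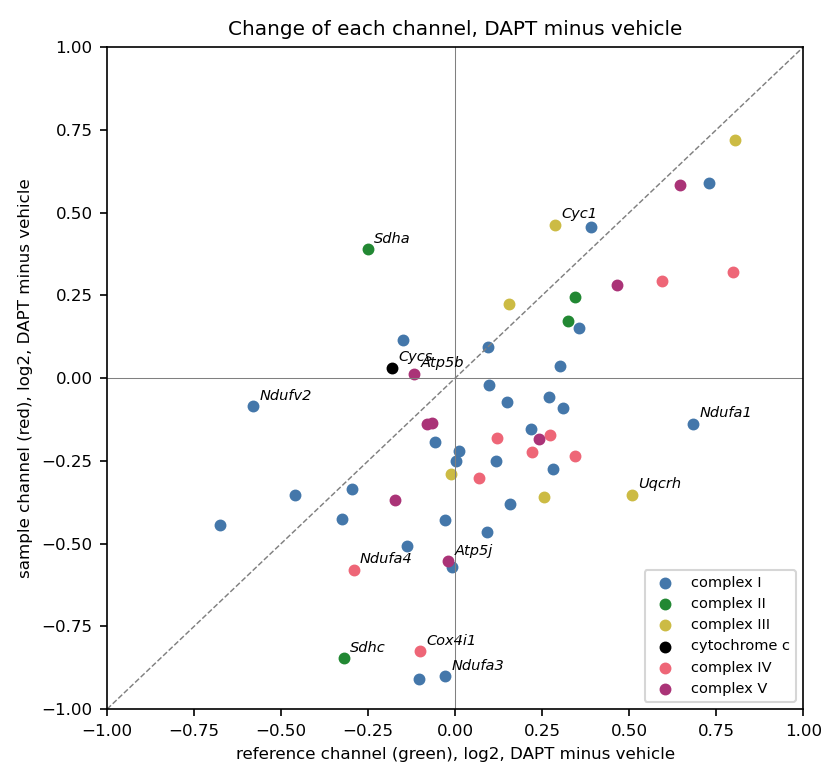
Difference between DAPT and vehicle in the sphere channel (vertical axis, log2) against that in the reference channel (horizontal axis, log2) for the 57 tested members, coloured by complex. Points below the dashed line of equality have a lower ratio with DAPT. Ndufa3 and Cox4i1 lie low at about 0 on the horizontal axis, while Ndufa1 and Uqcrh lie far to the right.

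The direction of the set as a whole depended on how the arrays were scaled, while some members kept theirs in the settings tried. Over 17 settings that kept all members, 13 had a change below 0 in each: Ndufa1, Ndufa3, Ndufa6, Ndufa13, Ndufb2, Ndufb9, Ndufb11, Sdhc, Uqcrh, Uqcrb, Cox4i1, Cox5b and Atp5j. In 4 it was above 0 in each, namely Ndufs8, Sdha, Cyc1 and Cycs, and 40 took both signs. All settings re-read the same 4 arrays, and several could not alter a member's change. Each member had 1 value per setting, and the dimmer Sdha probe by itself gave -0.19. Ndufa3 and Ndufa6 were among the 10 lowest members in every one of these settings, and Sdha and Cyc1 among the 10 highest. With median centring 43 of the 57 were above 0, none was called lower, and Ndufv2 and Sdha were called higher. Leaving out DAPT 2 ended all 3 calls, leaving out vehicle 2 ended those of Ndufa1 and Ndufa3, and leaving out DAPT 1 ended that of Ndufa1. With processed signals of the scanner software the calls were lost and the changes smaller, at -0.18 for Ndufa1, -0.39 for Ndufa3 and -0.53 for Uqcrh. Median centring likewise gave -0.39, -0.43 and -0.39. A normexp offset of 0 (-0.80, -0.83 and -0.80) and keeping 13 high-background spots of DAPT 2 (-0.85, -0.90 and -0.91) ended the calls with changes about as large.

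**Figure D4:**
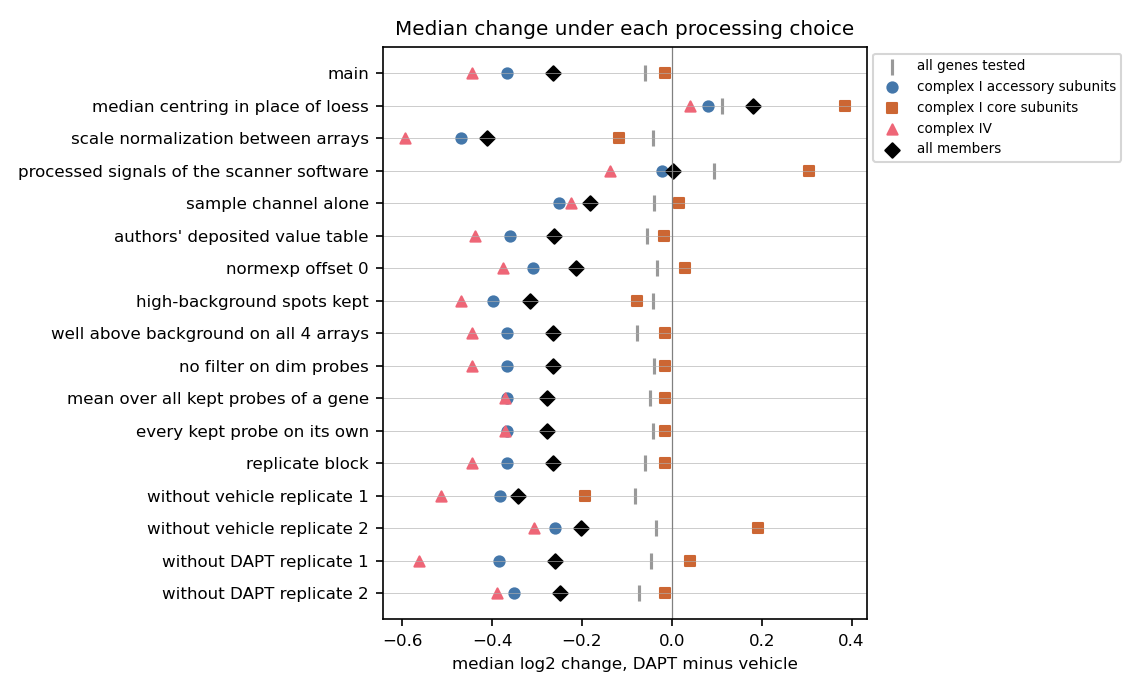
Median log2 change, DAPT minus vehicle (horizontal axis), under each of 17 processing settings (rows) for all members (black diamonds), core (orange squares) and accessory (blue circles) subunits of complex I, complex IV (pink triangles) and all genes tested (grey bars). Black diamonds lie between -0.41 and 0.18. All rows re-read the same 4 arrays, and several settings could not alter these medians.

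Other genes of the mitochondrion were taken from lists made for the chain's makers and partners. Unadjusted counts given for them stand beside the 13% lower and 10.2% higher of all genes. Of 26 further chain subunits tested, 1 was lower and 0 higher by limma (7 and 0 at an unadjusted p under 0.05), with a median of -0.29. The one called was Uqcr10, a small complex III subunit, with log2 ratios of 0.85 and 0.98 with vehicle and 0.34 and -0.012 with DAPT (-0.75 ± 0.21, adjusted p = 0.0488, limma). The median of these 26, like that of the members, was above 0 with median centring, at 0.09 beside 0.11 for all genes. Of 38 assembly factors, 1 was lower and 0 higher (3 and 4 unadjusted), with a median of 0.07. Sdhaf2, which inserts flavin into Sdha, changed by -0.84 ± 0.19 (adjusted p = 0.0235, limma), but its other probes gave 0.40 and -0.07.

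Mitochondrial ribosomal proteins, which translate the mitochondrial subunits of the chain, had a higher median than the members. Of 76 tested, 4 were higher and 0 lower by limma (12 and 2 unadjusted), and their median was 0.06. Mrpl37 rose by 0.87 ± 0.21 (adjusted p = 0.0282, limma) and Mrpl32 by 0.85 (adjusted p = 0.0249, limma), though in the sphere channel alone Mrpl32 was at -0.11.

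Of 18 regulators of mitochondrial biogenesis, 1 was higher and 0 lower by limma (3 and 1 unadjusted). Nrf1, the factor whose motif was counted above, had log2 ratios of -0.13 and 0.15 with vehicle and 0.96 and 0.88 with DAPT (0.91 ± 0.20, adjusted p = 0.0187, limma). A dimmer Nrf1 probe gave -0.48, so the probes disagree in sign. Of 26 citric acid cycle and pyruvate genes, 1 rose and 1 fell in log ratio (5 and 1 unadjusted), with a median of 0.06. Suclg2, a succinyl-CoA ligase subunit, rose by 0.82 (adjusted p = 0.0255, limma), while a dimmer probe gave 0.07. Pdk4, a kinase that inhibits pyruvate dehydrogenase, was not well above background on either DAPT array. Its measured sphere signal was 1.81-fold lower there, a figure that is open to dye bias. Its mean log2 sphere signal was 7.62 with vehicle and 6.76 with DAPT, a difference that did not pass on its own (adjusted p = 0.345, limma), while its log ratio passed (-0.88, adjusted p = 0.0371, limma).

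Of 26 carriers and import genes, 1 rose and 1 fell by limma, with a median of 0.085. At an unadjusted p under 0.05, 6 were higher and 1 lower, beside 10.2% and 13% of all genes. Hspd1, the chaperonin of the matrix, rose by 0.82 (adjusted p = 0.0287, limma), and Timm17b, an inner-membrane translocase subunit, fell by 0.72 (adjusted p = 0.0489, limma), with its other probes at -0.20, -0.34 and -0.21. Of 10 redox and uncoupling genes, 2 fell and 0 rose by limma (2 and 0 unadjusted). Prdx5, a peroxiredoxin, had log2 ratios of 0.41 and 0.63 with vehicle and -0.46 and -0.70 with DAPT (-1.11 ± 0.20, adjusted p = 0.00766, limma). Ucp2, an inner-membrane carrier of the uncoupling protein family, fell by 0.87 (adjusted p = 0.0297, limma).

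The 11 calls named in these mitochondrial lists were all lost in the sphere channel alone, with a normexp offset of 0 and with the high-background spots kept. With processed signals 10 were lost and without DAPT 2 the number was 9, Prdx5 and Nrf1 being those kept without DAPT 2. Median centring ended 6, all of them falls. These were Uqcr10 at -0.30, Timm17b at -0.35, Ucp2 at -0.43, Sdhaf2 at -0.44, Prdx5 at -0.65 and Pdk4 at -0.72. Scale normalization ended 3, all of them rises, with Mrpl32 at 0.62, Suclg2 at 0.64 and Mrpl37 at 0.65. The calls of Uqcr10 and Timm17b, both near the threshold, were also lost in the authors' deposited table and with no filter on dim probes. Averaging probes ended the calls of Nrf1, Sdhaf2, Suclg2 and Timm17b, at 0.22, -0.17, 0.44 and -0.37.

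Markers of other cell types were read beside these values. Of 16 fibroblast and smooth muscle markers, 9 fell and 0 rose by limma, led by Mgp at -2.44 and Postn at -2.39. The unadjusted counts were 11 and 0, beside 13% lower and 10.2% higher of all genes. The mean log2 ratio of the 16 was 0.04 and 0.34 on the vehicle arrays and -0.91 and -0.76 on the DAPT arrays. Their summed sphere signal was 123878 and 129343 against 81554 and 90114. Among the luminal markers Krt19 fell, at -1.11, and of 10 basal markers 1 fell, Krt15 at -1.08. Both calls were lost with median centring, at -0.65 and -0.70. None of 3 endothelial or 6 leukocyte markers passed, adjusted or not, with the endothelial Vwf at -0.43. The part that the cells' makeup plays in the members' values was not tested, and in such pooled RNA fewer cells of a type and less RNA per cell cannot be told apart.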

How the data were processed

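Sphere RNA of 4 samples (2.5 µg each, red) was hybridised against a universal reference (green). The deposited scanner files hold spot and background intensity and a log10 ratio, made with Agilent Feature Extraction 10.7.3.1 per the submitters' processing notes. The authors' deposited value table holds log2 ratios of unstated centring. Its columns have medians of 0.00072, -0.0106, -0.015 and -0.0115 and correlate at 0.9996 to 0.9998 with the values used here and at 0.869 to 0.902 with the scanner's log ratio, so the direction, red over green, is the same.

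The planned mean spot signals are not among the columns used here, so median signals served. Background was corrected with normexp (offset 50), leaving out 13 spots of DAPT 2 whose background was over 5 times the array's median, and loess was fitted within arrays. Median red signal was 1.83 to 2.84 times background. Probes entered the test where the scanner software called them well above background in red on each array of vehicle or of DAPT, with 1 probe per gene, the brightest. Of 41174 probes, 24375 were named through RefSeq accessions of GRCm38.p6, and 16799 stayed unnamed but in the tests. Log ratios correlated at 0.922 and 0.944 within groups and at 0.839 to 0.879 between them, and no spot was saturated.

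Groups were compared with limma 3.58.1 in R 4.3.3 (two-sided, 2 residual and 10.3 prior degrees of freedom). On simulated data for this comparison with 21464 genes, 98% of changes of 1 (log2) and 100% of changes of 2 were recovered, with 6 false calls. The members' changes, from -0.87 to 0.64, were all smaller in size, so the simulation does not cover them. Single channels were fitted after Aquantile normalization. The number of arrays, 2 per group, limits the precision. Members and lists were chosen with earlier results of these data known. Named with all values are members past the threshold and the highest and lowest of each complex, and from each other list at most 2 rises and 2 falls past the threshold, or its largest change, apart from some marker genes that are not reported here. Alternatives varied the scaling, background, filters, probes, replicate block and arrays used.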

Additional observations from a re-analysis of the deposited data

How the results depend on the processing

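With median centring in place of loess 1269 genes were higher and 529 lower (618 and 841 as reported), 2 members were higher and 0 lower, and the members' median was 0.18. Scale normalization gave 384 genes higher and 1000 lower, 6 members lower and a median of -0.41. The scanner software's processed signals gave 292 and 338 genes, 0 members lower and a median of 0.0034. The sphere channel alone gave 0 and 1 genes (1366 and 1277 at an unadjusted p under 0.05, limma) and 0 members lower. A normexp offset of 0 gave 127 and 272 genes, and keeping the high-background spots gave 3 and 70, each with 0 members lower. Leaving out marked spots kept 2856 genes, with 124 higher and 58 lower, and 1 member, at 0.27 (0 lower). Requiring probes well above background on all 4 arrays and averaging probes each gave 5 members lower. Leaving out each array in turn gave 0 to 5 members lower (5 without vehicle 1, 1 without vehicle 2, 3 without DAPT 1, namely Ndufa3, Uqcrh and Cox6a1, 0 without DAPT 2) and 0 to 1 higher (Ndufv2 without DAPT 1). The same-numbered samples' deviations correlated at 0.08, which cannot decide whether the numbers pair them, and the labels state no pairing. A fit with the replicate block gave 884 genes higher and 1165 lower, and 5 members lower.

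Changes that turned sign were Ndufv2 (-0.084) and Mrpl32 (-0.11) in the sphere channel, Ndufa4 (0.18 with median centring, 0.072 with processed signals), Atp5b (-0.12 with scaling, and from -0.13 without vehicle 1 to 0.39 without vehicle 2) and Vwf (0.088 with processed signals). The cause was not tested. Of the named genes' other changes under an alternative, 318 kept their direction and side of the threshold, 114 lost the threshold and 9 reached it.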
